A study of Homo sapiens with 4 samples.

Results

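Antisense long noncoding RNA genes are transcribed from the strand opposite to another, usually protein-coding, gene and take the symbol of that sense partner with the suffix -AS and a number. They were read here as genes whose symbol ends in that suffix and whose raw counts summed to at least 40 over the 4 libraries, except EPB41L4A-AS1 and NOP14-AS1. By that rule 509 of the 60671 genes in the table were members. The table held 1822 genes with such a symbol, of which 635 had no count and 676 had a summed count from 1 to 39. Members were thus chosen by their summed count, and their level of expression is given as a description. The members carry 508 distinct symbols, since 2 gene IDs bear the name DNAJC9-AS1.

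The libraries come from SK-N-BE(2), a human neuroblastoma cell line that carries amplified MYCN, and were sequenced to ask what METTL14 knockdown changes in the transcriptome. The shNC group carried a control short hairpin RNA and the shMETTL14 group a hairpin against METTL14, with 2 libraries each. Both groups are of the same line and, by the methods of the study, received their hairpin in a lentiviral pLKO.1 vector. The labels do not say which METTL14 hairpin was used, whether the libraries of a group came from separate cultures, or whether the library kit keeps strand, so p-values measure only the spread between these libraries, which may be technical.

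Antisense RNAs often start at or near the promoter of the sense gene, are spliced from few exons, and are mostly kept at low levels. Single members are known to act on the transcription of the neighbouring gene, as scaffolds for proteins or by binding microRNAs, while many have no described role. METTL14 is the RNA-binding partner of METTL3 in the methyltransferase that writes N6-methyladenosine (m6A), on coding and long noncoding RNAs alike, at adenosines in a short sequence context of which the word GGACT is a frequent form.

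The following lines show the word in 6 members on which the results turn, because it is a form of the context that the depleted enzyme uses. Each line gives the first match within 1 exon of the longest GENCODE 29 transcript (GRCh38), with 8 bases on either side, 5′ to 3′, and GGACT in capitals.
HAND2-AS1: cccgttctGGACTtcagaaag
OIP5-AS1: aaaggctgGGACTcaggtact
GABPB1-AS1: tacatgtaGGACTtgggaata
ROR1-AS1: cagggtggGGACTctggacag
SYT9-AS1: ggaggagaGGACTtagcagga
THAP9-AS1: gaggcgcgGGACTtccacact
These windows lie at chr4:173584705-173584725 on the plus strand, chr15:41299300-41299320 on the plus strand, chr15:50356151-50356171 on the plus strand, chr1:64106957-64106977 on the minus strand, chr11:7438905-7438925 on the minus strand and chr4:82900662-82900682 on the minus strand, in that order, all in exons. The longest transcripts of HAND2-AS1, OIP5-AS1, GABPB1-AS1, ROR1-AS1, SYT9-AS1 and THAP9-AS1 held 7, 7, 15, 1, 1 and 3 matches. After knockdown the first 5 of these genes fell and THAP9-AS1 rose. All 6 were shown because they hold the word, as 78.5% of annotated members do, and its relation to direction was not tested. Other members held no match, among them FGD5-AS1, ZNF667-AS1 and CBR1-AS1, which rose, and MCM3AP-AS1, which fell.

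METTL14 itself had 753 and 754 counts in the shNC libraries and 303 and 321 in the shMETTL14 libraries (log2 fold change -1.26, SE 0.083, adjusted p = 3.6e-11, edgeR quasi-likelihood test with Benjamini-Hochberg adjustment over all genes). The groups did not overlap, and the mean level after knockdown was 41.7% of the control. Reads counted in genes ran from 18925786 to 19886214 per library. Genes with at least 1 count numbered 25770 and 25508 in the shNC libraries and 25017 and 24938 in the shMETTL14 libraries. The 7 markers of neuroblastoma identity that were read, among them HAND2 and MYCN, had between 1484 and 61727 counts in every library. All 7 changed after knockdown: MYCN and ISL1 rose by 0.28 log2 units each (adjusted p of 3.8e-07 and 1.5e-05), and the other 5 fell, from 0.14 for PHOX2A (0.0053) to 0.79 for DBH, the enzyme that makes noradrenaline (5.5e-12). The 5 markers of blood, epithelium, endothelium and liver had between 0 and 93 counts, and summed to 134 and 138 counts in the shNC libraries against 96 and 85. Most of these counts were of the epithelial marker EPCAM, with 93 and 90 against 62 and 48 (-0.72, adjusted p = 0.0058). The blood marker PTPRC was not called (-0.32, adjusted p = 0.41). The identity markers, this sum and the number of detected genes moved with the groups, and their part in the results was not tested.

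Of the 509 members, 504 had enough counts to be tested, and 190 of these were called at an adjusted p under 0.05. Among the called members, 168 fell and 22 rose. These are 37.7% of the tested members, and the background share of called genes was 52.5% of all 16309 tested genes. By direction, 4.37% of tested members rose and 33.3% fell, beside 27.2% and 25.3% of all tested genes. The median member is of lower level than the median tested gene. At low level few genes of any kind were called higher, as given below. The median log2 fold change of tested members was -0.36, with quartiles at -0.73 and 0.01, whereas the median over all tested genes was -0.00095. A total of 367 tested members, or 72.8%, had a fold change below 0. At 2-fold, 60 members fell and 6 rose, where 5.99% of all tested genes fell and 2.8% rose. The groups did not overlap for 339 tested members, the 190 called ones among them, beside 75.5% of all tested genes. In bulk RNA a lower count can mean less RNA per cell or fewer cells that make it, and these cannot be told apart. A member could pass the filter through 1 group alone, yet of the 431 members with at least 10 counts in every library 161 fell and 21 rose. DESeq2 called fewer, with 98 lower and 7 higher, and all of these were among the 190. The number that rose depended most on the setting: it was 10 without shMETTL14 replicate 1 (132 fell), 15 without shNC replicate 2 (125 fell) and 14 under upper quartile scaling (196 fell). At 2-fold, 2 rose and 55 fell without shMETTL14 replicate 1, 4 rose and 46 fell without shNC replicate 2, and 2 rose and 44 fell with DESeq2.

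**Figure D1:**
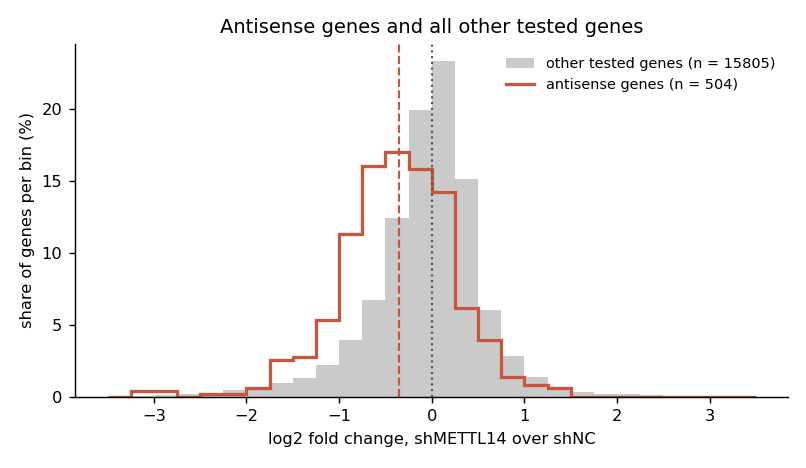
Share of genes (%, y axis) in bins of 0.25 in the log2 fold change of shMETTL14 over shNC (x axis), for the 504 tested antisense genes (red line) and the 15805 other tested genes (grey area), with 33 of the latter outside the plotted range. The dashed red line marks the median of the antisense genes, -0.36, and the dotted grey line that of the other genes, 0.0077; the red outline lies to the left of the grey area.

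The share of all gene counts that went to members was lower after knockdown. Members took 0.386% and 0.379% of the gene counts in the shNC libraries and 0.281% and 0.280% in the shMETTL14 libraries. HAND2-AS1 alone held 16.5% of the member counts in each shNC library and 10.02% and 9.81% after knockdown. Without it the shares were 0.322% and 0.317% against 0.253% and 0.252%, so both shMETTL14 libraries still lay below both shNC libraries.

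Level of expression bears on the comparison, because among other genes those of low level had lower fold changes. CPM stands for read counts divided by TMM-scaled library size. Below a mean log2 CPM of 0, the median was -0.33 over 86 members and -0.28 over the other genes of that level. In that range 2 members rose and 11 fell, beside 73 and 296 of 1656 other genes. Between 0 and 1 the median was -0.29 over 142 members and -0.23 over the others. Here 4 members rose and 30 fell, beside 128 and 264 of 1423 others. Protein-coding genes alone had medians of -0.36 and -0.21 in these ranges, the former lower than the members. The distance was larger at higher levels: -0.46 over 99 members against -0.19 between 1 and 2, and -0.42 over 139 members against -0.05 between 2 and 4. In the latter range 77 members fell and 6 rose, beside 801 and 617 of 2787 other genes. Among the 38 members at 4 and above, 16 fell and 4 rose, with a median of -0.16 against 0.06. Of 8661 other genes at that level, 2249 fell and 3432 rose. Other noncoding classes stood near the members: the median was -0.34 over 755 long intergenic RNA genes, of which 246 fell and 57 rose, and -0.32 over 597 genes typed antisense by GENCODE without the suffix, of which 147 fell and 30 rose. Over 12809 protein-coding genes it was 0.04, but these are of higher level for the most part, and from 2 to 4 their median was -0.02. No test was made of the difference between these classes, and the lean toward lower values is not particular to genes named -AS.

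**Figure D2:**
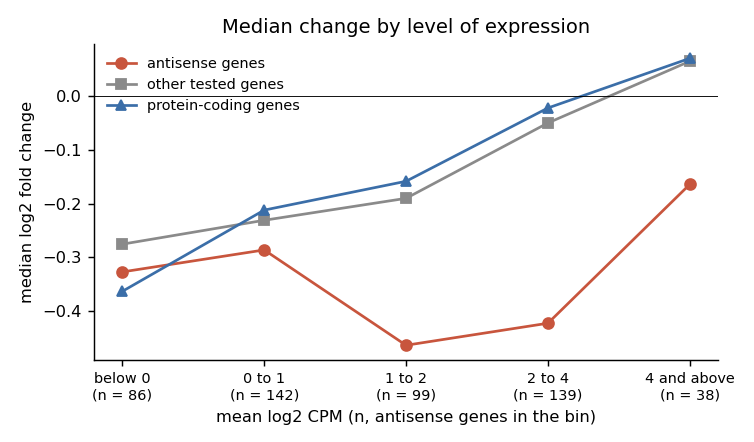
Median log2 fold change of shMETTL14 over shNC (y axis) in 5 bins of mean log2 CPM (x axis) for antisense genes (red circles), other tested genes (grey squares) and protein-coding genes (blue triangles). Red lies below grey in every bin, least so in the 2 lowest, where the values are -0.33 and -0.29 for the antisense genes and -0.28 and -0.23 for the others; in the lowest bin the protein-coding genes, at -0.36, lie below the antisense genes.

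The member with the most reads was HAND2-AS1 (ENSG00000237125, chr4:173527270-173659696, plus strand). It overlaps its partner HAND2, a basic helix-loop-helix factor of the noradrenergic neuroblastoma identity, head to head. Its level was 626 and 618 CPM in the shNC libraries and 286 and 279 CPM in the shMETTL14 libraries. The groups lay far apart compared with their spread, with means of 622 ± 5.79 and 283 ± 4.54 (SD, n = 2) and a log2 fold change of -1.14 with an SE of 0.038 (adjusted p = 5.3e-16). HAND2 fell by 0.29 log2 units (SE 0.036, adjusted p = 6.8e-07), and the antisense gene fell further than the sense gene by 0.85 (95% interval of the difference -0.98 to -0.72, adjusted p = 7.5e-12). That p-value ignores that both genes were counted in the same libraries. With limma on the log2 ratio of the 2 genes in each library, the adjusted p was 0.027.

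OIP5-AS1 (ENSG00000247556), a cytoplasmic RNA known to bind the RNA-stabilising protein HuR and miR-7, had 175 and 170 CPM in the controls and 123 and 125 CPM after knockdown. It fell by 0.48 log2 units (SE 0.043, adjusted p = 5.6e-09). Its partner OIP5, a centromere factor, fell by 0.39 (SE 0.11, adjusted p = 0.0051), and their difference of -0.08 (95% interval -0.31 to 0.14) was not called. Leaving out shNC replicate 2 ended the call of OIP5 (adjusted p = 0.12).

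GABPB1-AS1 (ENSG00000244879) starts 449 bases from GABPB1, a subunit of the ETS-family factor GABP, in the head-to-head arrangement. Its level was 111 and 110 CPM in the shNC libraries and 73.7 and 68.1 CPM in the shMETTL14 libraries, and it fell by 0.65 (SE 0.050, adjusted p = 4.8e-10). GABPB1 moved the other way, with 667 and 621 counts against 872 and 800, and rose by 0.39 (SE 0.071, adjusted p = 9.5e-05). The difference between the 2 genes was -1.03 (95% interval -1.21 to -0.85, adjusted p = 7.3e-11).

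THAP9-AS1 (ENSG00000251022) was among the few abundant members that rose. It had 65.6 and 66.0 CPM in the controls and 76.7 and 74.0 CPM after knockdown, a rise of 0.20 (SE 0.051, adjusted p = 0.0030). THAP9, a protein related to a DNA transposase, had 276 and 275 counts against 201 and 223 and fell by 0.37 (adjusted p = 0.0089), a call that was lost without shMETTL14 replicate 1 (0.094) and with DESeq2 (0.080). FGD5-AS1 (ENSG00000225733) had 96.8 and 97.7 CPM against 106 and 109 CPM, a rise of 0.15 (SE 0.046, adjusted p = 0.010) that was not called under upper quartile scaling (0.15), library size alone (0.067), DESeq2 (0.094) or without shMETTL14 replicate 2 (0.089). Its partner FGD5 was listed with 1 count at most per library.

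The other members among the 10 with the most reads had small changes or none that was called. GATA3-AS1, which lies within the locus of the noradrenergic factor GATA3, had 39.0 and 42.6 CPM against 34.4 and 37.0 CPM and fell by 0.19 (adjusted p = 0.033). TP73-AS1 had 41.0 and 40.2 CPM against 34.4 and 36.2 CPM and fell by 0.20 (adjusted p = 0.019). Neither call held with DESeq2 (adjusted p of 0.14 and 0.10) or without shMETTL14 replicate 1 (0.26 and 0.16), and they were also lost without shNC replicate 2 for GATA3-AS1 (0.26) and without shNC replicate 1 for TP73-AS1 (0.063). ENTPD1-AS1, OTUD6B-AS1 and PSMA3-AS1 were not called, with log2 fold changes of 0.10 (95% interval -0.04 to 0.24), 0.03 (-0.11 to 0.18) and -0.05 (-0.22 to 0.12).

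**Figure D3:**
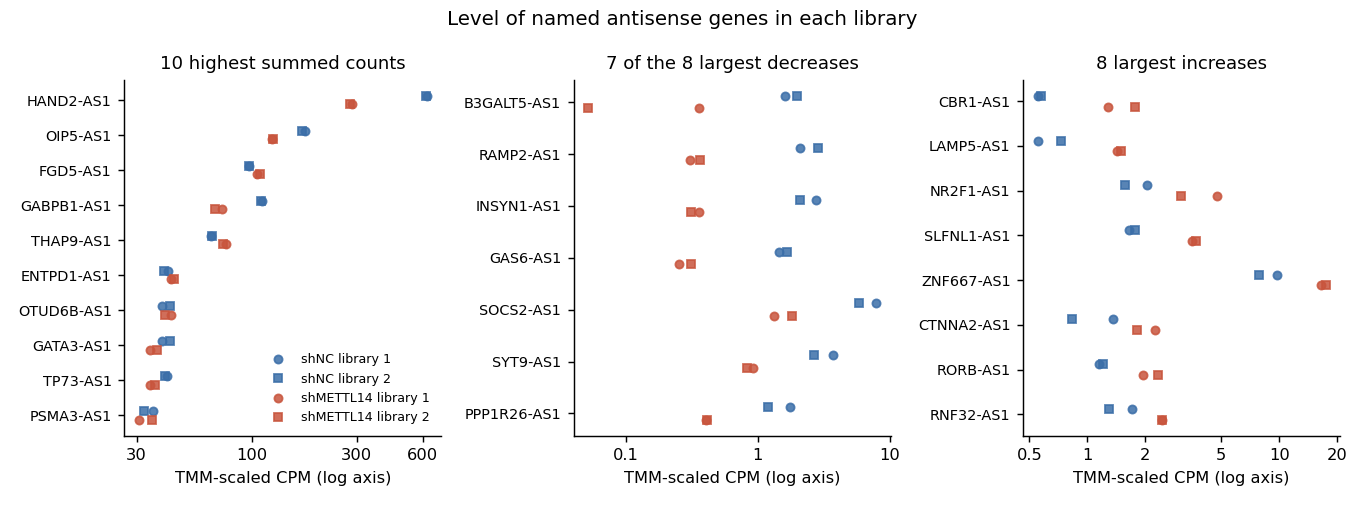
TMM-scaled CPM (x axes, log scale) of the 10 antisense genes with the highest summed counts (left), 7 of the 8 with the largest decreases (middle) and the 8 with the largest increases (right). Blue marks are shNC and red marks shMETTL14 libraries, circles library 1 and squares library 2; the colours are apart for every gene of the middle and right panels, which were chosen for this.

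The largest decreases were found in members with few reads. For these the values chose the genes, by the size of the change among called members whose mean log2 CPM was 0 or more. B3GALT5-AS1 had 32 and 38 counts in the shNC libraries and 7 and 1 in the shMETTL14 libraries, which gives a log2 fold change of -3.08 with an SE of 0.53 (adjusted p = 4.4e-05). It lies inside B3GALT5, a galactosyltransferase gene, which fell as well, by 2.46 (SE 0.32, adjusted p = 1.3e-06). RAMP2-AS1 went from 42 and 55 counts to 6 and 7, a change of -2.87 (SE 0.41, adjusted p = 4.8e-06). INSYN1-AS1 went from 55 and 40 counts to 7 and 6, a change of -2.83 (SE 0.41, adjusted p = 5.5e-06).

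The partners of the latter pair fell less. RAMP2, a coreceptor for adrenomedullin, had a log2 fold change of -0.99 (adjusted p = 0.00048), and the antisense gene lay below it by 1.88 (95% interval of the difference -2.86 to -0.90). INSYN1, a protein of inhibitory synapses, had -1.23 (adjusted p = 1.0e-06), with a difference of -1.61 (-2.54 to -0.68) that was no longer called without shNC replicate 1 (adjusted p = 0.069) or without shMETTL14 replicate 1 (0.054).

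SOCS2-AS1 went from 158 and 112 counts to 26 and 35, a change of -2.13 (SE 0.23, adjusted p = 8.3e-08). SOCS2, a feedback inhibitor of cytokine and growth hormone signalling, went from 752 and 810 counts to 184 and 165 and fell by nearly the same amount, 2.15 (SE 0.097, adjusted p = 7.3e-14). The difference within this head-to-head pair was 0.02 and was not called, which does not show that the 2 changes were equal.

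GAS6-AS1, SYT9-AS1 and PPP1R26-AS1 were also among the 8 largest decreases, with log2 fold changes of -2.44 (SE 0.46), -1.86 (SE 0.31) and -1.83 (SE 0.44). GAS6, the ligand of the AXL family of receptors, had 166 and 150 counts against 140 and 113, a change of -0.31 that was not called (adjusted p = 0.083). It was called without shMETTL14 replicate 1 (adjusted p = 0.036), under upper quartile scaling (0.037) and with library size alone (0.048). The call of PPP1R26-AS1 was lost without shNC replicate 1 (adjusted p = 0.051).

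Increases were fewer and smaller. CBR1-AS1 had 11 counts in both shNC libraries and 25 and 34 in the shMETTL14 libraries, a rise of 1.42 (SE 0.41, adjusted p = 0.0058). It spans CBR1, a carbonyl reductase gene, which rose by 0.62 (adjusted p = 5.2e-10), and 35.9% of its exonic bases lie on exons of CBR1. LAMP5-AS1 went from 11 and 14 counts to 28 and 29, a rise of 1.19 (SE 0.40, adjusted p = 0.015), next to a rise of 0.86 in LAMP5, a neuronal lysosome-associated membrane protein (adjusted p = 3.4e-10). NR2F1-AS1 went from 41 and 30 counts to 93 and 59, a rise of 1.10 (SE 0.27, adjusted p = 0.0015), and NR2F1, an orphan nuclear receptor of the neural crest, rose by 0.60 (adjusted p = 0.0025). In these 3 pairs both genes rose. With DESeq2 the calls of CBR1-AS1 and LAMP5-AS1 were lost (0.052 and 0.10). Single libraries also decided them: CBR1-AS1 was not called without shMETTL14 replicate 2 (0.11), NR2F1-AS1 not without shMETTL14 replicate 1 (0.056), and LAMP5-AS1 neither without shNC replicate 1 (0.13) nor without shMETTL14 replicate 1 or 2 (0.061 and 0.088).

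ZNF667-AS1 was the best measured of the large increases, with 9.78 and 7.83 CPM in the controls and 16.6 and 17.5 CPM after knockdown. It rose by 0.95 (SE 0.12, adjusted p = 6.8e-07), whereas ZNF667, a zinc finger gene that starts 815 bases away on the other strand, had 0.16 (adjusted p = 0.25). The difference of 0.79 (95% interval 0.44 to 1.14) was called (adjusted p = 0.00036). SLFNL1-AS1 went from 33 and 34 counts to 69 and 71, a rise of 1.07 (SE 0.25, adjusted p = 0.0010), and SLFNL1 had 4 or 5 counts per library.

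CTNNA2-AS1, RORB-AS1 and RNF32-AS1 rose by 0.88, 0.86 and 0.70 (adjusted p of 0.035, 0.028 and 0.048). TDH-AS1 and TTC23-AS1, of lower level and named after their values were seen, rose by 1.32 and 1.26 (adjusted p of 0.020 and 0.028) and make up the 6 members at 2-fold with CBR1-AS1, LAMP5-AS1, NR2F1-AS1 and SLFNL1-AS1. All 5 calls were near the threshold. With DESeq2 the adjusted p was 0.15 for CTNNA2-AS1, 0.14 for RORB-AS1, 0.21 for RNF32-AS1, 0.12 for TDH-AS1 and 0.14 for TTC23-AS1. CTNNA2-AS1 and RNF32-AS1 were also not called under upper quartile scaling (0.051 and 0.074), and RNF32-AS1 not with library size alone (0.065). Without shNC replicate 1 the calls of RORB-AS1, RNF32-AS1 and TDH-AS1 were lost (0.054 to 0.10), and without shNC replicate 2 those of all 5 (0.077 to 0.25). Without shMETTL14 replicate 1 CTNNA2-AS1, RNF32-AS1, TDH-AS1 and TTC23-AS1 were not called (0.13 to 0.33), and without shMETTL14 replicate 2 RORB-AS1 and RNF32-AS1 (0.17 and 0.12).

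Members whose partner is a developmental transcription factor were read as a list. Of 22 such members 21 were tested, and 13 fell, 1 rose (NR2F1-AS1) and 7 were not called, with a median log2 fold change of -0.53, beside 25.3% lower and 27.2% higher over all tested genes. Of their 18 tested partners 10 fell and 4 rose. SATB1-AS1, opposite the chromatin organiser SATB1, had 29.3 and 28.1 CPM against 14.3 and 15.02 CPM and fell by 0.97 (SE 0.089, adjusted p = 6.5e-09). ZEB1-AS1, opposite the epithelial-mesenchymal transition factor ZEB1, had 20.6 and 21.6 CPM against 11.03 and 10.2 CPM and fell by 0.99 (SE 0.10, adjusted p = 3.8e-08). Both partners also fell, SATB1 by 0.47 and ZEB1 by 0.63 (adjusted p of 9.6e-09 and 5.8e-11).

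Within this list some pairs moved by similar amounts and others did not. SIX3-AS1 had 88 and 100 counts against 42 and 52 and fell by 0.99 (SE 0.22, adjusted p = 0.00062), and the forebrain homeobox gene SIX3, whose start lies 25 bases away, fell by 0.98 (adjusted p = 5.0e-13). Their difference of -0.01 was not called (adjusted p = 0.98, interaction test), which does not show that the 2 changes were equal. PAX8-AS1 fell by 0.55 (adjusted p = 4.0e-06) from 34.4 and 33.6 CPM to 23.3 and 23.2 CPM, and PAX8, at 50 to 86 counts, by 0.62 (adjusted p = 0.017), the latter not called with DESeq2 (0.11), without shNC replicate 2 (0.063) or without shMETTL14 replicate 2 (0.11). MEIS1-AS3 went from 22 and 21 counts to 6 and 8, a change of -1.59 (SE 0.48, adjusted p = 0.0077), while the homeobox gene MEIS1 had 0.16 (adjusted p = 0.0098). Their difference of -1.75 (-2.57 to -0.92) was called (adjusted p = 0.00073). The call of MEIS1-AS3 was lost with DESeq2 (0.070), without shNC replicate 1 (0.058), without shNC replicate 2 (0.053) and without shMETTL14 replicate 1 (0.089), and that of MEIS1 under upper quartile scaling (0.13), library size alone (0.059), DESeq2 (0.091), without shNC replicate 1 (0.10) and without shMETTL14 replicate 1 (0.12).

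Among members opposite a ZNF gene, the large family of zinc finger transcription factors, 22 of 23 were tested. Of these 7 fell, 1 rose (ZNF667-AS1) and 14 were not called, with a median of -0.22, where 25.3% of all tested genes fell and 27.2% rose, so the share that fell was near the background. Of their 21 tested partners 3 fell and 3 rose. ZNF561-AS1 had 13.4 CPM in both shNC libraries and 6.79 and 6.39 CPM in the shMETTL14 libraries, a fall of 1.03 (SE 0.12, adjusted p = 4.1e-07), and 54.1% of its exonic bases lie on exons of genes on the opposite strand. ZNF337-AS1 went from 123 and 103 counts to 45 and 61, a fall of 1.08 (adjusted p = 0.00013), whereas ZNF337 rose by 0.37 (adjusted p = 0.00065). Their difference was -1.45 (95% interval -1.87 to -1.03, adjusted p = 1.0e-06). ZNF436-AS1 had 88 and 139 counts against 44 and 64 and fell by 1.06 (adjusted p = 0.00073), a call that was lost without shNC replicate 2 (0.0504).

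Of the 9 tested members of a list whose partners are linked to cell division or to DNA replication and repair, 5 fell and 4 were not called, with a median of -0.48, beside 25.3% lower and 52.5% called over all tested genes. MCM3AP-AS1 had 19.1 and 19.3 CPM against 11.6 and 11.7 CPM and fell by 0.71 (SE 0.10, adjusted p = 3.1e-06), while MCM3AP, which binds the replication factor MCM3 and also acts in messenger RNA export, had -0.02 (adjusted p = 0.80). WEE2-AS1 went from 201 and 191 counts to 90 and 86, a fall of 1.14 (adjusted p = 9.0e-07), and the oocyte kinase gene WEE2 had at most 1 count per library. PRC1-AS1 went from 37 and 38 counts to 21 and 8 and fell by 1.36 (adjusted p = 0.0068), a call that was lost without shMETTL14 replicate 2 (0.12). Its partner PRC1, a spindle protein of dividing cells, was listed with only 10 to 21 counts per library, so how reads were assigned at this locus is uncertain, and so is the value of PRC1-AS1. OIP5-AS1, above, also belongs to this list.

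Among 16 antisense RNAs with much described roles 7 fell, 2 rose and 7 were not called, with a median of -0.20. The called share is near the 52.5% of all tested genes. TTN-AS1 had 36.0 and 35.8 CPM against 21.1 and 24.5 CPM and fell by 0.66 (SE 0.083, adjusted p = 8.3e-07). The titin gene TTN itself had 9 to 16 counts per library, and 55.1% of the exonic bases of TTN-AS1 lie on TTN exons. LOXL1-AS1 had 202 and 190 counts against 95 and 117 and fell by 0.88 (adjusted p = 3.0e-05), with LOXL1, a lysyl oxidase-like enzyme of elastic fibres, falling by 0.62 (adjusted p = 1.9e-07). TMPO-AS1, often described in proliferating tumour cells, had 22.7 and 18.1 CPM against 22.1 CPM in both shMETTL14 libraries, a change of 0.12 (95% interval -0.09 to 0.32) that was not called. Its shNC libraries decide this value: without shNC replicate 1 it was 0.28 (adjusted p = 0.039), and without shNC replicate 2 it was -0.03.

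A sense partner of the stem symbol was present for 504 members, as 500 distinct genes, and 451 partners of tested members were themselves tested. As a group the partners did not share the lean toward lower values: 148 rose and 123 fell, or 32.8% and 27.3%, beside 27.2% and 25.3% of all tested genes, with a median of 0.04. The median over all tested protein-coding genes was also 0.04. Most partners are of higher level than their members. The part of level in this contrast, and in the pair differences below, was not tested. The pairwise comparison asked whether the 2 genes of a pair responded differently, by an edgeR interaction test over 4225 opposite-strand pairs of the table. It takes the counts of the 2 genes in a library as independent, so its p-values and intervals ignore their pairing. A test of log2 ratios within libraries keeps the pairing and called fewer pairs, as given below. Of 454 member pairs, 189 had a called difference, or 41.6%, beside 46.2% of all pairs. In 166 the antisense gene lay below the sense gene, and in 23 above it, with a median difference of -0.37. Fewer pairs were called without shNC replicate 2 (122), without shMETTL14 replicate 1 (123) and with limma on the log2 ratios of the 2 genes (97, of which 87 lay below). Because the reads may not carry strand, reads of a gene and its antisense partner cannot be told apart where their exons overlap.

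By direction, 64 pairs fell together and 8 rose together. In 33 the antisense gene fell while the sense gene rose, and in 5 the reverse was seen. These 38 pairs in opposite directions are 8.37% of the member pairs, beside 10.8% of all opposite-strand pairs. Among the rest, the antisense gene alone was called in 61 pairs, the sense gene alone in 162 and neither in 121. Fold changes of the 2 genes had a Pearson r of 0.26 and a Spearman rho of 0.19 over the 454 pairs, which share 4 libraries. Over the other 3771 opposite-strand pairs these were 0.10 and 0.096.

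**Figure D4:**
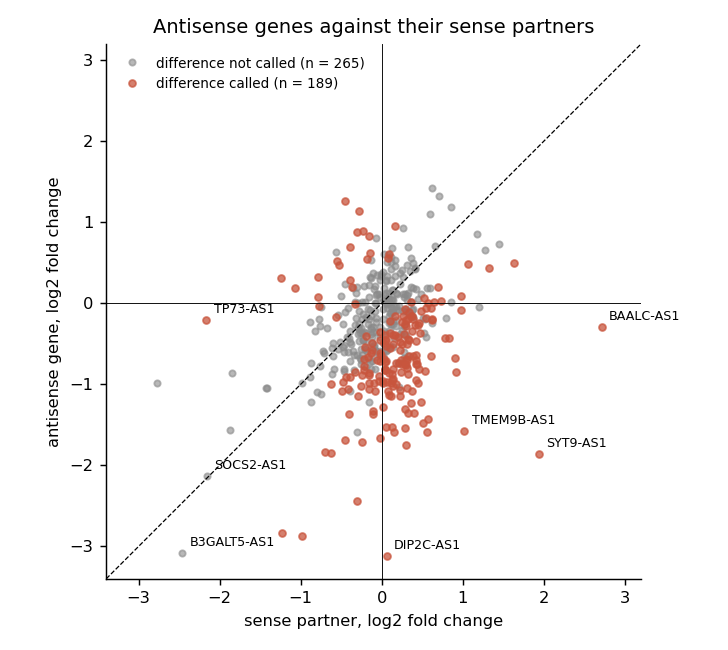
Log2 fold change of each antisense gene (y axis) against that of its sense partner (x axis) for 454 pairs, shMETTL14 over shNC. Red points are the 189 pairs with a called difference and grey points the other 265; the dashed line marks equal change, and 166 of the red points lie below it.

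The widest called difference was that of SYT9-AS1 (ENSG00000251364, chr11:7427266-7512515, minus strand) and SYT9, a synaptotagmin that senses calcium in exocytosis, which overlap tail to tail. SYT9-AS1 had 74 and 51 counts in the shNC libraries and 18 and 16 in the shMETTL14 libraries, whereas SYT9 had 206 and 186 counts against 787 and 704. The antisense gene fell by 1.86 (adjusted p = 3.3e-05) and the sense gene rose by 1.94 (adjusted p = 2.1e-13), with a difference of -3.80 (SE 0.29, 95% interval -4.39 to -3.21, adjusted p = 9.4e-12).

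In BAALC-AS1 and DIP2C-AS1 only 1 gene of the pair was called. BAALC-AS1 had 40 and 28 counts against 29 and 26, a change of -0.29 (adjusted p = 0.48), while BAALC rose from 96 and 107 counts to 642 and 687, by 2.72 (SE 0.11, adjusted p = 1.3e-14), and the difference was -3.01 (95% interval -3.66 to -2.36). DIP2C-AS1 had 23 and 14 counts against 3 and 1, a change of -3.12 (adjusted p = 0.00045), while DIP2C had 758 and 742 counts against 786 and 767 and was not called (0.06, adjusted p = 0.49). The ratio of the DIP2C-AS1 counts was 0.109, with a counting interval of 0.028 to 0.303. GENCODE 29 types DIP2C-AS1 as protein coding, as it does KRT10-AS1, CCDC28A-AS1 and KCNJ5-AS1.

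ROR1-AS1 (ENSG00000223949, chr1:64094442-64171297, minus strand) lies inside ROR1, a receptor of WNT5A, and had no exonic base on exons of the opposite strand. It had 21.4 and 20.6 CPM in the controls and 8.43 and 7.12 CPM after knockdown, a fall of 1.43 (SE 0.11, adjusted p = 5.3e-10). ROR1 had 542 and 487 counts against 781 and 741 and rose by 0.57 (SE 0.076, adjusted p = 1.4e-06). The difference was -2.01 (95% interval -2.29 to -1.73, adjusted p = 8.4e-13), with the smallest SE (0.14) among the 8 widest.

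TMEM9B-AS1, UFD1-AS1 and MARCHF11-AS1 also fell against a partner that rose. TMEM9B-AS1 went from 85 and 66 counts to 22 and 28, and TMEM9B from 223 and 237 to 449 and 478, a difference of -2.60 (SE 0.26, adjusted p = 3.1e-09). UFD1-AS1 went from 121 and 106 counts to 37 and 38, and UFD1, a cofactor in the degradation of misfolded proteins, rose by 0.56 (adjusted p = 3.1e-09), a difference of -2.15 (SE 0.19, adjusted p = 1.3e-10). MARCHF11-AS1 went from 24 and 34 counts to 8 and 9, while the ubiquitin ligase gene MARCHF11 rose by 0.31 (adjusted p = 3.7e-05), a difference of -2.05 (SE 0.37, adjusted p = 3.6e-05). MARCHF11-AS1 itself was not called without shNC replicate 2 (adjusted p = 0.058). GAS6-AS1, with a difference from GAS6 of -2.12 (SE 0.47, adjusted p = 0.00047), was the other of the 8.

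The 5 pairs in which the antisense gene rose and the sense gene fell were THAP9-AS1, CTNNA2-AS1, TRIM52-AS1, AGAP2-AS1 and TTC23-AS1, of which the last 3 are named after their values were seen. Their differences were 0.56 (SE 0.12), 1.19 (SE 0.27), 1.01 (SE 0.18), 1.11 (SE 0.19) and 1.71 (SE 0.45). AGAP2-AS1 had 364 and 382 counts against 468 and 462, and AGAP2, a GTPase-activating protein of neurons, 129 and 128 against 73 and 75. CTNNA2, the neuronal alpha-catenin, had fallen by 0.31 (adjusted p = 4.1e-06). The rise of TRIM52-AS1 was not called without shNC replicate 2 (adjusted p = 0.074), without shMETTL14 replicate 1 (0.075) or with DESeq2 (0.084), and that of AGAP2-AS1 not without shNC replicate 1 (0.051). The TTC23 difference was not called without shNC replicate 2 (0.087) or with limma (0.071), nor that of THAP9 with limma (0.056).

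TP73-AS1 showed the widest difference in the other direction among the 10 members with the most reads. It fell by 0.20, while TP73, a transcription factor of the p53 family, went from 68 and 77 counts to 13 and 19, a fall of 2.16 (SE 0.30, adjusted p = 3.1e-06). The difference was 1.96 (95% interval 1.40 to 2.52, adjusted p = 8.2e-07). PSMA3-AS1 had no called change while PSMA3, a proteasome subunit, rose by 0.55 (adjusted p = 1.5e-09), a difference of -0.60 (-0.79 to -0.42).

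The arrangement of the 2 genes differed among members. Head-to-head overlap was the most frequent, with 243 members, followed by tail-to-tail overlap (96), antisense genes inside their partner (94), antisense genes that span it (44) and divergent pairs without overlap (23). In 105 of 501 members the 2 starts lay within 500 bases. Among head-to-head pairs 102 of 232 differences were called, 95 with the antisense gene lower, and the fold changes of the 2 genes had an r of 0.41. In the 83 pairs with the antisense gene inside its partner r was 0.32, and in 24 spanning pairs 0.36. In 89 tail-to-tail pairs it was -0.05 and in 23 divergent pairs -0.01. These are Pearson values. Spearman rho was 0.29, 0.14, 0.31, 0.04 and -0.01 in the same order of arrangements, so pairs inside their partner were less alike by rank. These correlations describe pairs from the same 4 libraries, and the differences between them were not tested.

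**Figure D5:**
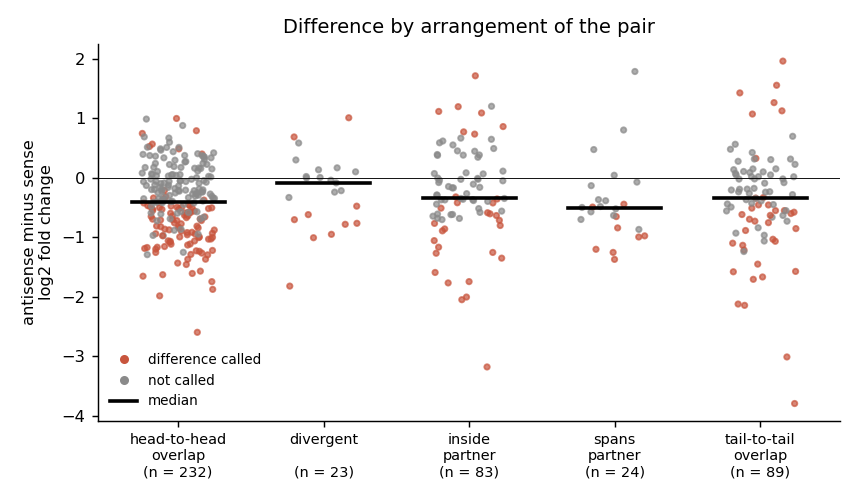
Antisense minus sense log2 fold change (y axis) for the pairs of 5 arrangements (x axis, with the number of pairs); red points are called differences, grey points are not, and black bars are medians. The medians are -0.40 for head-to-head, -0.09 for divergent, -0.35 for inside, -0.51 for spanning and -0.35 for tail-to-tail pairs, all below 0.

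For 3 stems more than 1 member was tested. BCAN-AS1 went from 30 and 32 counts to 15 and 6 and BCAN-AS2 from 21 and 24 counts to 10 and 8, changes of -1.54 (SE 0.43) and -1.30 (SE 0.45), both called (adjusted p of 0.0046 and 0.018) and named after their values were seen. Without shMETTL14 replicate 2 neither was called (0.097 and 0.14), nor was BCAN-AS2 with DESeq2 (0.12) or without any other single library (0.059 to 0.14). In the other 2 stems, PTOV1 and RBMS3, 1 of 2 members was called.

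Members were expressed below their partners in most pairs. Per kilobase of exonic length, the mean level of the antisense gene was above that of the sense gene in 80 of 453 pairs, and the median ratio of the 2 levels was 19.6%. The median member had a mean level of 2.18 CPM and a summed count of 166, beside a median of 19.3 CPM over all tested genes. HAND2-AS1 stood at 21.3 CPM per kilobase and HAND2 at 179. Exceptions were TP73-AS1 at 3.91 against 0.336 for TP73, THAP9-AS1 at 16.0 against 2.89 for THAP9, and ZNF667-AS1 at 3.56 against 1.35 for ZNF667.

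Antisense genes that the sense exons cover in full were read as a description. The strand setting of the counting is not given, and reads counted as ambiguous were left out. Reads on exons of both genes of a pair may be among those left out. Low counts of covered genes therefore cannot show how far reads of a sense gene were credited to the other strand. In the annotation, 14 genes named -AS lay with all exonic bases on exons of a partner with at least 2000 summed counts (2059 to 30885), and had summed counts of 0 to 194, with a median of 9.5. Most members were covered far less, and the median member had 8.90% of its exonic bases on exons of the opposite strand. Of 263 tested members with under 10% overlap, 103 fell and 12 rose, with a median of -0.42. Of 104 without any such overlap, 33 fell and 4 rose, with a median of -0.36. Of 44 with 50% or more, 14 fell and 1 rose, with a median of -0.18. The differences between these sets were not tested, nor was the part of reads assigned to the wrong gene of a pair.

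The word GGACT was counted on the transcribed strand of the longest transcript. It was present in 86.9% of members that fell, 72.7% of those that rose and 74.8% of those not called, whose median lengths were 2361, 1659 and 1662 bases. Per kilobase the medians were 1.03, 1.10 and 1.05 matches. The median was 1.05 over all 508 annotated members, 0.92 over 12800 tested protein-coding genes and 0.87 over 755 long intergenic RNA genes. A match is a description of letters and does not show that the site is methylated.

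Just inside the limit of 40 counts, ADNP-AS1 had 11, 18, 6 and 5 counts, HOXC-AS3 20, 8, 5 and 7, PHLDA1-AS1 5, 10, 10 and 15, UBE2E1-AS1 12, 13, 9 and 6, and UNC5B-AS1 8, 13, 10 and 9, in the order of the 2 shNC and the 2 shMETTL14 libraries. Just outside it, with 39, ADD3-AS1 had 4, 18, 8 and 9 counts, GREM1-AS1 3, 2, 8 and 26, PUS1-AS1 8, 10, 13 and 8, and SMIM15-AS1 16, 10, 7 and 6. At this depth a gene near the limit has about 10 counts per library, so only large changes can be seen in it.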

How the data were processed

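Paired-end RNA sequencing reads of 2 shNC and 2 shMETTL14 libraries were counted by the authors, who deposited 1 table of raw counts per Ensembl gene ID. The submitters' processing notes name HISAT2 2.1.0, StringTie 1.3.6, HTSeq 0.13.5 and edgeR on GRCh38; the annotation release and strand setting are not given in the sources used here. The 5 lines that name no gene held 19.1% to 19.9% of counts (ambiguous reads 5.01% to 5.32%) and were left out.

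All genes were fitted with edgeR 4.0.16 in R 4.3.3 (TMM, filterByExpr with a minimum count of 10 and total of 15, quasi-likelihood F test, group only), with Benjamini-Hochberg adjustment over 16309 genes and calls at an adjusted p under 0.05. Standard errors were derived from the F statistic, and intervals are 95%. Such an SE is unreliable where the estimate is close to 0, so no interval is given for the differences of SIX3-AS1 and SOCS2-AS1 from their partners. Differences within pairs came from the gene by group interaction on stacked counts of opposite-strand pairs, adjusted over all 4225. The 2 genes of a pair entered as separate columns without a term for the library, so their pairing was ignored except in the limma alternative. Positions, types and lengths are from GENCODE 29; of the 60671 IDs, 60401 matched a table of gene names and 58453 matched GENCODE 29. An exact permutation test of 2 against 2 libraries cannot go below 0.333, so calls rest on the variance model. The scripts were tested on simulated data. Intervals of counts cover counting error only.

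Members and lists were chosen with earlier results of these data known. Named are the 8 largest increases and decreases among called members with groups apart and a mean log2 CPM not below 0, the 10 highest summed counts, the 8 widest called pair differences, members of 4 lists, their partners and the genes at the count limit; some genes that this rule names are not reported here. Alternatives were other scalings, filters, DESeq2 1.42.0, limma 3.58.1, a replicate block, exon overlap limits and leaving out each library.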

Additional observations from a re-analysis of the deposited data

How the results depend on the processing

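With 2 libraries per group, calls near the threshold moved with single libraries. The count of 190 called among 504 tested members was 194 to 210 under other scalings and 105 with DESeq2. Of the 263 tested members under 10% exon overlap 115 were called, and 37 of the 104 without any (chosen after seeing the data). These are smaller sets in the same fit, not lost calls. Leaving out each library in turn gave 140 to 160 called members, 50 to 61 at 2-fold, medians of -0.37 to -0.32, 122 to 131 called pairs and -1.31 to -1.21 for METTL14. A limit of 1.5-fold gave 139 in place of 66. The median of -0.36 was -0.43 under upper quartile scaling and -0.40 with library size alone, where the median over all genes moved by -0.0676 and -0.0451. Called pairs numbered 97 with limma in place of 189, both of 454. Of the 271 pairs under 10% exon overlap 125 were called. Same-numbered libraries did not deviate together (Pearson r 0.072 over 11625 genes); a fit with a replicate block called 202 members, 66 at 2-fold and 186 pairs. Of 1294 alternative fits of 117 gene values, 1202 kept direction and side of the threshold, 77 lost the call, 4 gained it and 11 changed sign. OTUD6B-AS1 had -0.035 under upper quartile scaling and -0.012 with library size alone, and DIP2C -0.00823 under upper quartile scaling. Over the fits that leave out 1 library, values ran from -0.038 to 0.11 for OTUD6B-AS1, -0.14 to 0.047 for PSMA3-AS1, -0.24 to 0.067 for OIP5-AS1 minus OIP5, -0.039 to 0.0092 for MCM3AP, -0.74 to 0.044 for RNF32 (-0.39 with all libraries) and -0.031 to 0.28 for TMPO-AS1. The cause was not tested. A gene of 40 summed counts has too few reads for small changes to be seen.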
